A study of Mus musculus with 30 samples.

Results

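The 31 genes described here are a fixed list of microglia and macrophage genes, taken by symbol from the 2 deposited tables of a mouse midbrain study. They cover the 3 chains of complement C1q, the signalling adaptors Tyrobp and Fcer1g, 7 microglial surface receptors, 5 lysosomal and antimicrobial genes, 7 leukocyte surface and cytoskeletal genes, 4 genes of border macrophages, the transcription factors Spi1 and Irf8, and the oxidase subunit Cyba. Of the 31, 27 were listed at 1 or more ages among 14997 genes of the captured tissue, and all 31 were present among 26005 genes of the cultured spheres. Itgam, Ptprc, Cd163 and F13a1 were listed at no age in the captured tissue.

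Microglia are the resident macrophages of the brain parenchyma. They derive from yolk sac progenitors that enter the neural tube in early embryonic life, depend on signalling through the receptor Csf1r, and are specified by the factors PU.1 (encoded by Spi1) and Irf8. Border macrophages of the meninges, perivascular spaces and choroid plexus are related cells that express Mrc1, Cd163, Pf4 and F13a1 more strongly than microglia do. Neither cell type belongs to the neuroepithelial lineage of the floor plate, the ventral midline of the neural tube.

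The captured samples were laser-microdissected midbrain floor plate of mice that carry Lmx1aCreERT2 and R26TRAPC at every age, a tamoxifen-inducible Cre driven by the floor plate gene Lmx1a with a Cre-dependent reporter. Embryonic day 11 (E11) had 4 libraries, E13 and E18 had 5 each, and postnatal day 70 (P70) had 6. The spheres were cultures grown in vitro from adult animals, 5 libraries labelled MB and 5 labelled FB, with no genotype given. The series names neurospheres of the lateral ventricle and ependymal spheres of the midbrain, but the 2 abbreviations are not spelled out and are kept here as labels. The labels do not say whether replicates came from separate animals or cultures, so the p-values measure the spread between these samples, which may be technical.

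Captured levels are given in the units of the deposited table, which behave as reads per gene length and library depth and can be set side by side between genes. Genes with a mean under 1 unit at some age carry no value for that age, and were not analysed there. E18 replicate 1 stood apart from its group in many members, so calls gained or lost without it are given beside the results. Whole reads could be recovered from the steps of the values for 76.1% of the genes and summed to 1137353 to 4182208 per captured library, with the lowest totals at P70. Sphere libraries held 6327198 to 9291311 counts, and their levels are given as CPM, counts scaled to the library total. Captured changes are differences of mean log2(unit + 1), which understate the change of low genes. They were tested with limma over all genes listed at both ages, and a gene was called where its Benjamini-Hochberg adjusted p was under 0.05. In bulk tissue, fewer cells of a type and less RNA per cell cannot be told apart.

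The number of listed members went from 20 at E11 through 23 at both E13 and E18 up to 26 at P70. Of the members, 17 were listed at all 4 ages. Listed genes of the whole captured table numbered 12221 for E11 and 12381 for E13, then 13340 for E18 and 13291 for P70. The number of listed genes thus changed for the table as a whole too. Between E11 and E13, 11 of the 18 members tested rose and 1 fell, with a median log2 change of 1.32 against -0.04 over all 11567 genes tested. Among all genes, 20.9% were called in either direction, 9.44% of them as higher and 11.5% as lower. Between E13 and E18, 4 of 22 members rose and 1 fell, where 47.4% of 11797 genes were called, 22.4% higher and 25% lower. The members' count of 5 was thus a smaller share than the background, with a median change of 0.41 against -0.04. Between E18 and P70, 7 of 23 rose and 1 fell, where 40.8% of 12353 genes were called, 16.9% higher and 24% lower (2082 and 2960 genes, or 2612 and 2174 after scaling by median ratios). The members' share of calls there lay near the background, and their median was 0.44 against -0.14. These comparisons share the E13 and the E18 libraries with each other.

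**Figure D1:**
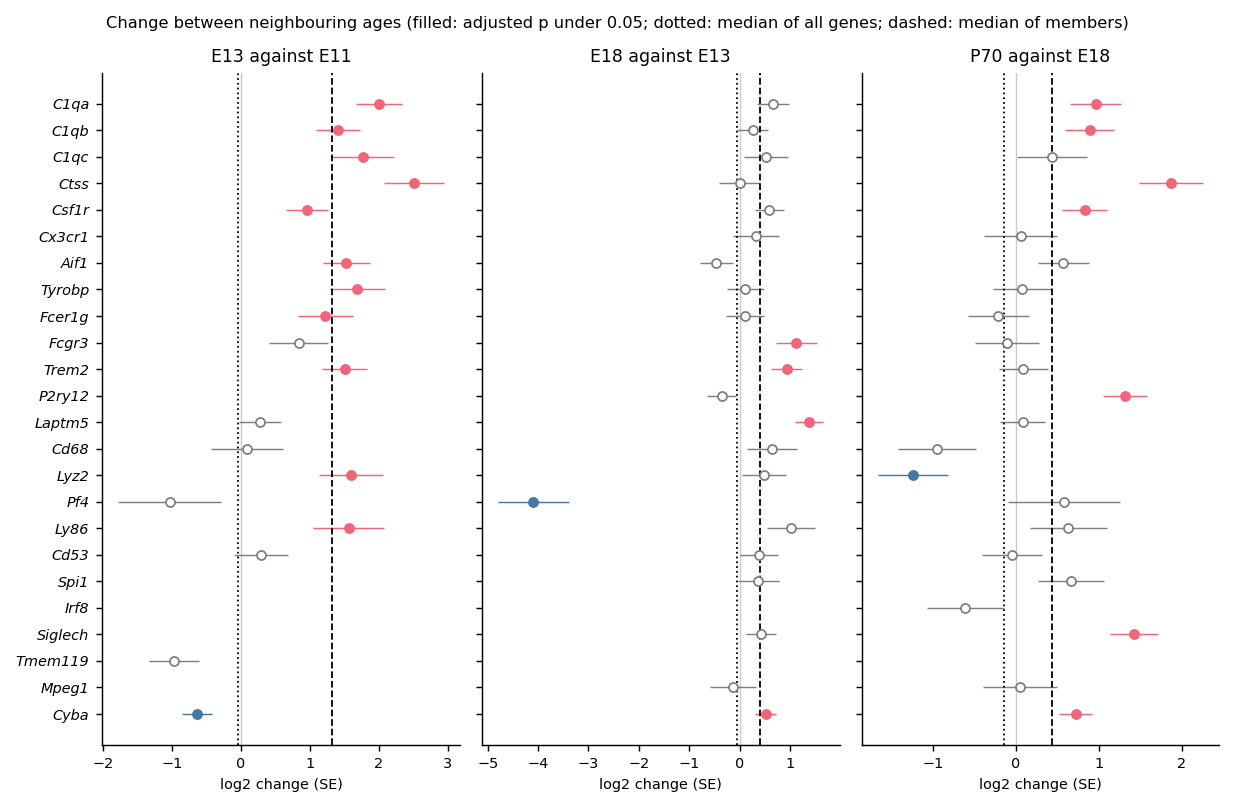
Log2 change with its standard error (x axis) for each member tested (y axis) between neighbouring ages. Filled points have an adjusted p under 0.05, the dotted line is the median of all genes and the dashed line the median of the members, which lies at 1.32 between E11 and E13, 0.41 between E13 and E18 and 0.44 between E18 and P70.

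PU.1 recognises purine-rich DNA with the consensus GAGGAAGT, so the bases before the start sites of the members were searched for it and for its first letters, GAGGAA, on both strands (every GAGGAAGT match is also a GAGGAA match). The window was the 90 bases before the outermost start in the RefSeq promoter table (GRCm38) and the GENCODE annotation of the same build, and 20 members had one. GAGGAA stood in 8 of the 20 (40%), and in 8.64% of the 16281 genes with such a window. The longer GAGGAAGT stood in 2 of the 20, C1qc and Pf4 (10%), and in 1.12% of all. The shares depended on the window. In the full promoter sequences of 24 members, GAGGAA stood in 62.5%, against 31.25% of 27025 genes, and GAGGAAGT in 20.8% against 3.69%. In the part of these sequences before the RefSeq start, the shares were 58.3% against 25.85% and 8.33% against 2.79%. A match is a description of these letters and not evidence of binding. Aif1, Ctss, Fcer1g, Ly86 and Lyz2 also rose by E13 and had a 90-base window, but held no GAGGAA in it. Shown are 3 members that rose by E13 and Pf4, which fell, 5′ to 3′ on the strand of each gene, with GAGGAA or its complement TTCCTC in capitals.
C1qb: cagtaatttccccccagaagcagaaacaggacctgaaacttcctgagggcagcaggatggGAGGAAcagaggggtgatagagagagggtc
C1qc: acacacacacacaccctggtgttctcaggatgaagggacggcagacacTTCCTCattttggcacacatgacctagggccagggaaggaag
Trem2: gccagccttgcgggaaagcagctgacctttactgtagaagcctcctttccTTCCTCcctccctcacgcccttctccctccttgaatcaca
Pf4: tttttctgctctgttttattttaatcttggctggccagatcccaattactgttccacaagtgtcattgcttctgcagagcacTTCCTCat
The C1qb window is chr4:136886201-136886290 and the C1qc window chr4:136893066-136893155, both on the minus strand. The Trem2 window is chr17:48346311-48346400 and the Pf4 window chr5:90772345-90772434, both on the plus strand. In these windows the match lay 30 bases before the start in C1qb, 42 in C1qc, 40 in Trem2 and 8 in Pf4, each counted from its first letter.

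The 3 C1q chains, which together form the recognition protein that starts the classical complement pathway, had means that increased at each age. Their genes lie side by side on the minus strand of chromosome 4 (GRCm38), C1qb at chr4:136880129-136886187, C1qc at chr4:136889804-136893065 and C1qa at chr4:136895917-136898803. C1qa stood at 3.18, 6.49, 1.41 and 4.55 units in the 4 E11 libraries. It stood at 26.0, 22.3, 18.2, 17.7 and 7.67 units in the 5 libraries of E13. Every E13 library thus exceeded every E11 library, and C1qa rose by 2.0 on the log2 scale (SE 0.34, limma adjusted p = 0.000211). At E18 C1qa reached 18.3, 25.9, 31.4, 31.03 and 35.9 units, overlapping the range of E13, and the change of 0.67 was not called (adjusted p = 0.0889). edgeR on recovered reads called it (0.74, adjusted p = 0.0468). At P70 the lowest, median and highest libraries were at 33.3, 62.5 and 76.0 units. Of the P70 libraries only replicate 1 lay within the range of E18, and C1qa rose again by 0.96 (SE 0.30, adjusted p = 0.0151). That call was lost with weights per library (0.86, adjusted p = 0.0634).

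C1qb and C1qc had higher E11 levels than C1qa. C1qb averaged 12.6 ± 4.0 units (SD, n = 4) in E11 libraries and 34.3 ± 5.70 (n = 5) in those of E13. Its later means were 46.6 ± 22.4 (n = 5) for E18 and 77.1 ± 13.1 (n = 6) for P70. It rose by 1.40 between E11 and E13 (adjusted p = 0.00343) and by 0.89 between E18 and P70 (adjusted p = 0.0183). C1qc averaged 8.48 ± 3.4, 31.03 ± 9.83, 50.3 ± 23.2 and 67.4 ± 35.4 units at the 4 ages. It rose between E11 and E13 by 1.76 (adjusted p = 0.00866), while the later changes of 0.52 and 0.44 were not called. The large SD at E18 came from 1 library: in E18 replicate 1, C1qb was at 13.1 and C1qc at 11.4 units, and in the other 4 they lay at 43.1 to 71.7 and 53.1 to 73.3. Without that library C1qb rose between E13 and E18 by 0.65 (adjusted p = 0.0136) and C1qc by 0.98 (adjusted p = 0.0333), and the rise of C1qb between E18 and P70 was lost (0.50, adjusted p = 0.0512). It was also lost with only the 2 ages fitted (adjusted p = 0.0511), with weights per library (adjusted p = 0.115) and by edgeR on recovered reads (adjusted p = 0.0650). The change of C1qc in that last interval was -0.02 without E18 replicate 1.

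**Figure D2:**
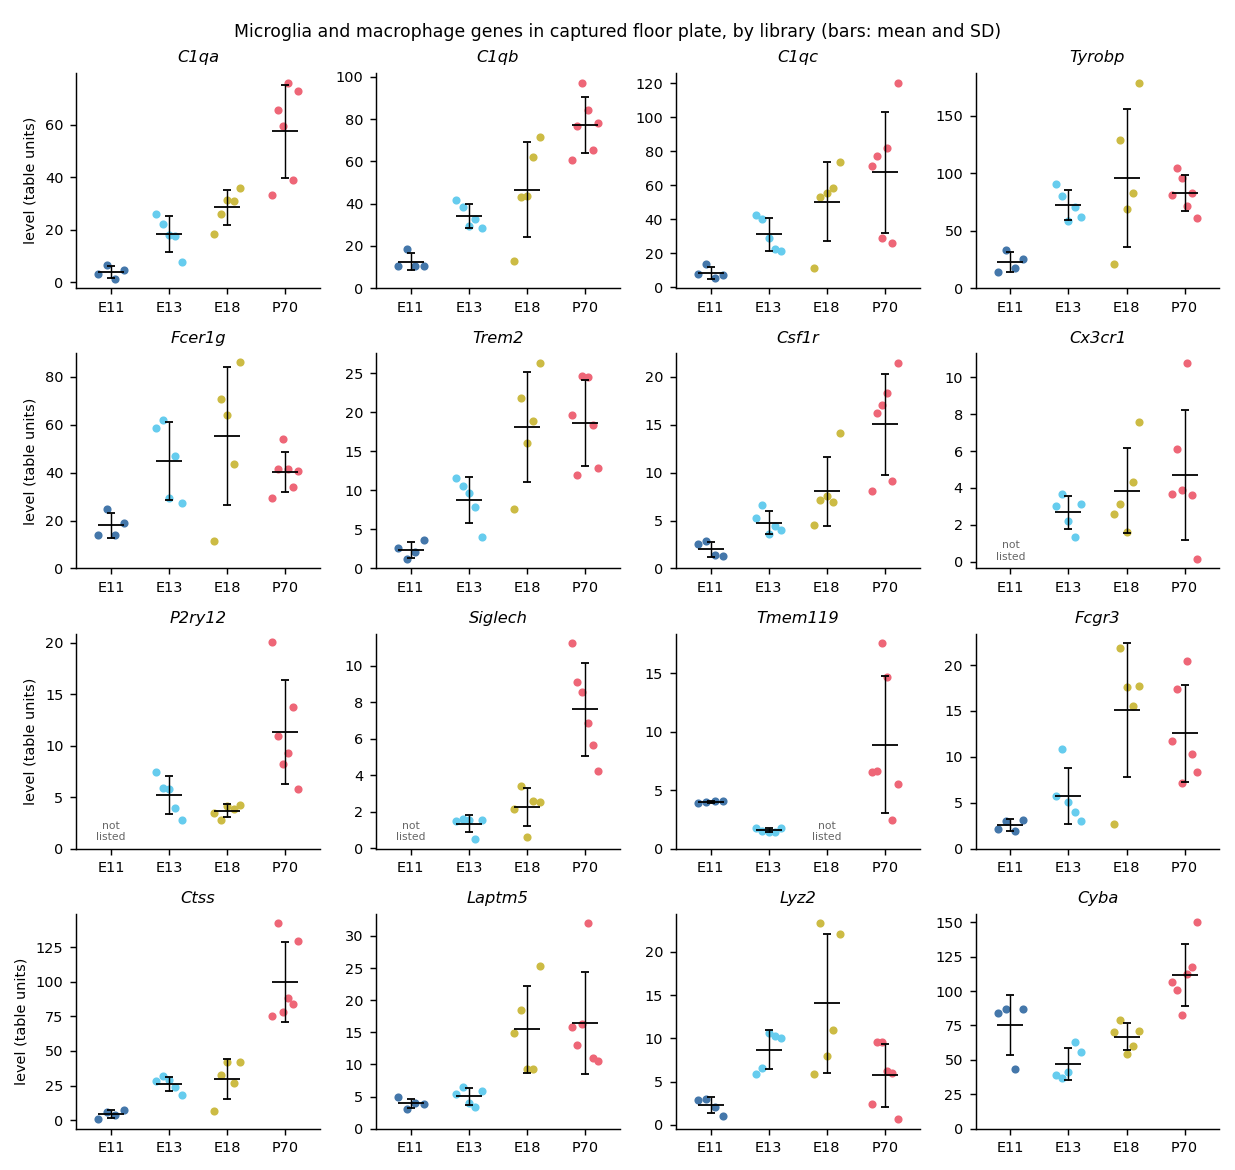
Levels of 16 members in table units (y axis, from 0) in each captured library at the 4 ages (x axis), with the mean and SD. All E13 libraries lie above all E11 libraries for C1qa, C1qb, C1qc, Tyrobp, Fcer1g, Trem2, Csf1r, Ctss and Lyz2, and the lowest E18 point of C1qb, C1qc, Tyrobp, Fcer1g, Trem2 and Fcgr3 is replicate 1.

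Tyrobp and Fcer1g are adaptor proteins whose ITAM motifs carry signals from receptors that lack their own, Tyrobp for Trem2 and Fcer1g for Fc receptors. Both rose between E11 and E13 and showed no call afterwards. Tyrobp, on chromosome 7 (chr7:30413760-30417585, GRCm38), was at 14.1, 33.4, 17.8 and 25.3 units at E11. At E13 it was at 90.8, 80.0, 58.6, 71.1 and 62.3 units. The 2 ages did not overlap, with a change of 1.69 (SE 0.39, adjusted p = 0.00377). E18 spanned 20.8 to 179 units and P70 61.0 to 105 units, and the 2 later changes were 0.11 and 0.08. Without E18 replicate 1 they were 0.57 (adjusted p = 0.0812) and -0.39 (adjusted p = 0.238). Fcer1g rose from 18.1 ± 5.13 units (n = 4) at E11 to 44.8 ± 16.2 (n = 5) at E13, by 1.23 (adjusted p = 0.0324). That call was lost without E11 replicate 1, 3 or 4 or E13 replicate 1, 2 or 4 (adjusted p up to 0.0947). Its later means were 55.2 ± 28.9 (n = 5) at E18 and 40.2 ± 8.37 (n = 6) at P70. Without E18 replicate 1 Fcer1g fell in that last interval by 0.69 on the log2 scale (adjusted p = 0.0341).

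Trem2, the lipid-sensing receptor that signals through Tyrobp, rose in both embryonic intervals. It was at 2.56, 1.25, 2.09 and 3.69 units at E11 and at 11.6, 10.6, 9.68, 7.87 and 4.04 units at E13. At E18 it reached 7.58, 21.8, 16.0, 18.9 and 26.3 units. E11 lay wholly below E13 (change 1.5, SE 0.33, adjusted p = 0.00223), while E13 and E18 overlapped through E18 replicate 1 (change 0.94, SE 0.31, adjusted p = 0.0157). The second rise was lost without E13 replicate 5 (adjusted p = 0.0602) or E18 replicate 5 (adjusted p = 0.0524). At P70 the lowest, median and highest libraries were at 11.9, 19.0 and 24.6 units, within the spread of E18, and the change was 0.09 (-0.17 without E18 replicate 1). Fcgr3, a low-affinity Fc receptor that pairs with Fcer1g, rose between E13 and E18, from 5.72 ± 3.06 to 15.1 ± 7.32 units (n = 5 each), by 1.13 (adjusted p = 0.0250). The rise was lost without E13 replicate 4 or 5 or any E18 replicate but 1 (adjusted p up to 0.0765) and with only the 2 ages fitted (adjusted p = 0.0512), and close relatives of Fcgr3 in the genome make its read assignment uncertain.

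Csf1r, the receptor for the growth factors Csf1 and Il34 on which microglia depend, had a higher mean at each later age. Its mean was 2.01 ± 0.80 units (n = 4) in E11 and 4.78 ± 1.22 (n = 5) in E13 libraries. It reached 8.03 ± 3.59 (n = 5) by E18 and 15.0 ± 5.31 (n = 6) by P70. The rise was called between E11 and E13 (0.96, adjusted p = 0.0264) and between E18 and P70 (0.83, adjusted p = 0.0189). The first call was lost without E11 replicate 3 or 4 or E13 replicate 1 or 2 (adjusted p up to 0.0885). The step between E13 and E18 was 0.59 (adjusted p = 0.0954), and without E18 replicate 1 it was called at 0.75 while the last step, 0.67, was not. With weights per library the middle step was likewise called (adjusted p = 0.0181) and the last was not (0.65, adjusted p = 0.0837). edgeR on recovered reads also called the middle step (0.86, adjusted p = 0.0202). Exons of Csf1r overlap those of Hmgxb3, and the library protocol does not mark strand, so reads of the pair cannot be told apart where they overlap.

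Of the receptors that mark mature, homeostatic microglia, some were first listed after E11, while Tmem119, described below, was listed at E11. Of 16 further homeostatic microglia genes, 10 were already listed at E11. P2ry12, which senses nucleotides, Cx3cr1, the receptor of the neuronal chemokine Cx3cl1, and Siglech, a sialic acid-binding lectin, were not listed at E11 and were listed from E13 on. P2ry12 was at 7.47, 5.88, 5.79, 3.99 and 2.77 units at E13 and at 3.42, 2.73, 4.12, 3.84 and 4.26 at E18. At P70 its lowest, median and highest libraries were at 5.78, 10.1 and 20.01 units, all above every E18 library, and it rose by 1.32 (SE 0.27, adjusted p = 0.000737). Siglech was at 1.52, 1.59, 1.57, 0.521 and 1.54 units at E13 and at 2.15, 3.43, 0.597, 2.61 and 2.52 at E18. Its P70 libraries ran from 4.21 through a median of 7.72 to 11.2 units, again above every E18 library, and it rose by 1.42 (SE 0.29, adjusted p = 0.000656). Both rises remained past the threshold whichever library was left out and under every other setting tried.

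Cx3cr1 averaged 2.67 ± 0.92 units (n = 5) at E13, 3.85 ± 2.3 (n = 5) at E18 and 4.70 ± 3.53 (n = 6) at P70, and neither change of 0.32 and 0.06 was called. Its P70 libraries ranged from 0.162 units in replicate 6 to 10.8 in replicate 4. Annotated exons overlap between Cx3cr1 and Gm33858 and between P2ry12 and Med12l, so their reads are uncertain there. Tmem119, a membrane protein used as a microglial marker, had a different course from the other receptors. It lay at 3.93, 3.94, 4.03 and 4.09 units at E11 and at 1.72, 1.47, 1.43, 1.42 and 1.75 at E13, was not listed at E18, and at P70 ran from 2.40 through a median of 6.60 to 17.6 units. The E11 and E13 libraries did not overlap, but the change of -0.97 was not called in the fit of all 4 ages (adjusted p = 0.0693). It was called when only those 2 ages were fitted (adjusted p = 0.001), and by edgeR on recovered reads (-1.30, adjusted p = 0.00238). Selplg, the ligand of P-selectin, and Itgb2, the common chain of leukocyte integrins, were listed only at P70, at 10.7 ± 5.55 and 2.42 ± 2.27 units (n = 6 each).

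Among the lysosomal genes, the cysteine protease Ctss changed most. It was at 0.793, 5.75, 3.64 and 7.59 units at E11 and at 28.2, 31.6, 28.8, 24.1 and 18.1 at E13. The 2 ages were fully separate, and Ctss rose by 2.51 (SE 0.43, adjusted p = 0.000253). At E18 it was at 6.88, 32.6, 41.9, 26.8 and 41.9 units, with replicate 1 again lowest, and no change was called (adjusted p = 0.999). Without replicate 1 the change was 0.44 (adjusted p = 0.299). At P70 its lowest, median and highest libraries were at 75.0, 86.5 and 142 units, above every earlier library, and it rose by 1.87 (SE 0.39, adjusted p = 0.000589). Laptm5, a lysosomal membrane protein of blood-derived cells, rose instead between E13 and E18. It was at 5.43, 6.57, 4.02, 3.36 and 5.87 units at E13 and at 14.9, 18.5, 9.28, 9.37 and 25.3 at E18, without overlap, a change of 1.38 (SE 0.29, adjusted p = 0.000427). At E11 Laptm5 averaged 3.94 ± 0.72 units (n = 4) and at P70 16.5 ± 8.0 (n = 6), and neither neighbouring step was called.

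Lyz2, the lysozyme of myeloid cells, rose between E11 and E13 and fell between E18 and P70. It averaged 2.24 ± 0.93 units (n = 4) at E11 and 8.70 ± 2.26 (n = 5) at E13, a rise of 1.6 (adjusted p = 0.0166) that was lost without E11 replicate 4 (adjusted p = 0.0610). At E18 it was at 5.91, 23.3, 7.99, 11.0 and 22 units. At P70 it ran from 0.664 through a median of 6.09 to 9.61 units, and it fell by 1.24 on the log2 scale (adjusted p = 0.0218). The E18 and P70 ranges overlapped, and the fall was lost without E18 replicate 2, E18 replicate 5 or P70 replicate 1 (adjusted p up to 0.0735), with only the 2 ages fitted (adjusted p = 0.0617) and by edgeR on recovered reads (adjusted p = 0.120). Mouse Lyz1 is nearly identical to Lyz2, so its reads may be split between them. Cd68, a lysosomal glycoprotein of phagocytes, was not called at any step with all libraries weighted equally. Its means were 12.1, 12.9, 23.3 and 13.3 units. Without E18 replicate 1, at 5.58 units the lowest of that age, Cd68 fell between E18 and P70 by 1.37 (adjusted p = 0.0171). It also fell there without P70 replicate 6, by 1.23 (adjusted p = 0.0346). With weights per library it rose between E13 and E18 (0.79, adjusted p = 0.0426) and fell by 0.98 between E18 and P70 (adjusted p = 0.0454). Mpeg1, which encodes a pore-forming protein of phagosomes, stood at 1.96 to 2.35 units on average from E13 on, with no call.

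The leukocyte genes Aif1 (Iba1), which bundles actin, and Ly86, which encodes the partner of a Toll-like receptor homologue, also rose between E11 and E13. Aif1 went from 5.82 ± 3.4 (n = 4) to 17.3 ± 5.15 units (n = 5), by 1.53 (adjusted p = 0.00254), and then stayed between 12.7 and 18.8 units on average. Ly86 went from 2.84 ± 0.90 to 10.3 ± 2.25 units, by 1.56 (adjusted p = 0.0326), a call lost without E11 replicate 1, 2 or 3 or E13 replicate 1, 3 or 5 (adjusted p up to 0.1002). Its means went on to 24.6 ± 13.6 units (n = 5) at E18 and 44.5 ± 29.1 (n = 6) at P70, and neither step was called with all libraries (1.02 and 0.63). The first was called without E18 replicate 1 (adjusted p = 0.0268), with only the 2 ages fitted (adjusted p = 0.0209), with weights per library (adjusted p = 0.00358) and by edgeR on recovered reads (1.38, adjusted p = 0.00465). The second was called without P70 replicate 3 (1.05, adjusted p = 0.0315). Cd53, a tetraspanin of leukocytes, stayed near the listing limit, at 1.13 to 2.78 units on average.

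Pf4 had the largest change of any member tested, a fall. It encodes a chemokine made by platelets and megakaryocytes and by border macrophages, and lies at chr5:90772435-90773383 (GRCm38). It was at 80.1, 138, 62.8 and 29.7 units at E11 and at 18.2, 13.6, 39.1, 40.5 and 89.1 at E13. These ranges overlapped and the change of -1.03 was not called (adjusted p = 0.364). At E18 it was at 1.82, 2.17, 0, 0.804 and 0.806 units, below every E13 library, and it fell by 4.09 on the log2 scale (SE 0.70, limma adjusted p = 5.72e-05). At P70 4 of the 6 libraries were at 0 to 1.02 units, while replicate 1 was at 19.4 and replicate 3 at 9.80.

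Of the red blood cell genes, both of the 2 tested between E13 and E18 fell as well. One of them, Alas2, which encodes the first enzyme of haem synthesis in red cells, then rose from 2.42 to 14.5 units between E18 and P70 (1.66, adjusted p = 0.0256). The summed level of the erythroid genes listed at each age (6, 5, 2 and 4 genes in order of age) was 8096 to 23601 units for E11 and 3859 to 13853 for E13. It was 1.62 to 6.85 units for E18 and 7.13 to 447 for P70. The embryonic globin Hbb-y alone went from 7145 to 2.29 units on average between E13 and E18. Within an age the 2 did not always go together: at P70 the erythroid sum was highest in replicates 5 and 3, at 447 and 293 units, where Pf4 was at 0 and 9.80. Whether blood in the captured tissue had a part in the level of Pf4 was not tested. Of the other border macrophage members, Mrc1, the mannose receptor, was listed only at E11 (1.36 ± 0.75 units, n = 4). Cd163, a haemoglobin scavenger receptor, and F13a1, a clotting factor subunit, were listed at no age.

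**Figure D3:**
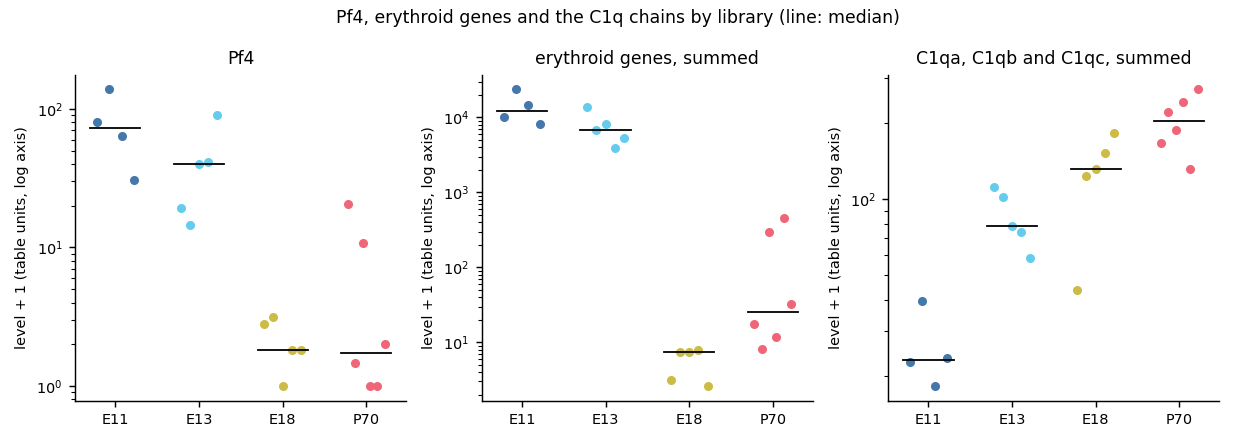
Level + 1 in table units on log axes for Pf4, the summed erythroid genes and the summed C1q chains in each captured library by age, with the median as a line. Pf4 and the erythroid genes are lower in every E18 library than in every E13 library, and the C1q sum is at 17.2 to 38.4 units at E11 and 130 to 271 at P70.

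The factors that specify the lineage were listed at low levels. Spi1 was not listed at E11 and averaged 1.81 ± 0.96 units (n = 5) at E13, 2.56 ± 0.90 (n = 5) at E18 and 5.77 ± 5.31 (n = 6) by P70, where replicate 6 alone stood at 16.0. Irf8 averaged 1.70 ± 0.96 units (n = 4) at E11, was not listed at E13, and averaged 2.11 ± 0.54 (n = 5) at E18 and 1.69 ± 2.27 (n = 6) at P70. It was at 0 in 3 of the 6 P70 libraries. No change of either factor was called.

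Cyba, the membrane subunit shared by the NADPH oxidases and expressed in many cell types, was the 1 member called lower between E11 and E13 by limma over all 4 ages. Tmem119 was called lower under the other settings given above. Cyba was at 84.2, 86.9, 43.1 and 87.0 units at E11, at 38.7, 36.7, 41.5, 63.0 and 56.0 at E13 and at 69.99, 79.0, 54.2, 60.1 and 71.2 at E18. It fell by 0.64 on the log2 scale (adjusted p = 0.0391) and then rose by 0.52 (adjusted p = 0.0426). Both calls lay near the threshold and were lost on leaving out any 1 of several libraries. The fall was lost without E11 replicate 1, 2 or 4 or E13 replicate 1, 2 or 3 (adjusted p up to 0.123) and under median ratio scaling (adjusted p = 0.0680). It was also lost with only the 2 ages fitted (adjusted p = 0.0538) and by edgeR on recovered reads (adjusted p = 0.0566). The rise was lost without E13 replicate 1, 2 or 3 or E18 replicate 1, 2 or 5 (adjusted p up to 0.107). At P70 Cyba ran from 82.9 through a median of 109.6 to 150 units, above every E18 library, and rose by 0.72 (SE 0.20, adjusted p = 0.00553). Of 5 further oxidase genes, Cybb, its catalytic partner in phagocytes, was listed at no age, and 1, 2 and 2 were tested at the 3 steps with no call by limma or by edgeR on recovered reads. Rac2 alone had an unadjusted p under 0.05, between E18 and P70.

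E18 replicate 1 was the lowest library of its age for 15 of the 23 members listed, with a median difference of -1.13 on the log2 scale from the median of the age. E18 replicate 5 was the highest for 15 of the 23. In summed level the 17 members listed at every age reached 209 units in E18 replicate 1 and 483 to 762 in the other 4, against 345 to 430 at E13. Its 2614699 recovered reads were the fewest of its age, where the highest total was 3426603, and its fibroblast and meningeal genes summed to 68.9 units against 107.5 to 118.1 in the others. That sum was mostly the single gene Vtn, which averaged 91.2 ± 23.8 units at E18. The endothelial and mural genes of replicate 1 summed to 48.3 units, inside the 36.0 to 60.5 of the age. Without E18 replicate 1, 7 of 22 members rose and 1 fell between E13 and E18. In that fit 5234 of 11797 genes were called, 2432 higher and 2802 lower. Between E18 and P70, 5 of 23 members rose and 3 fell, where 4833 of 12353 genes were called, 2087 higher and 2746 lower. What set E18 replicate 1 apart was not tested.

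**Figure D4:**
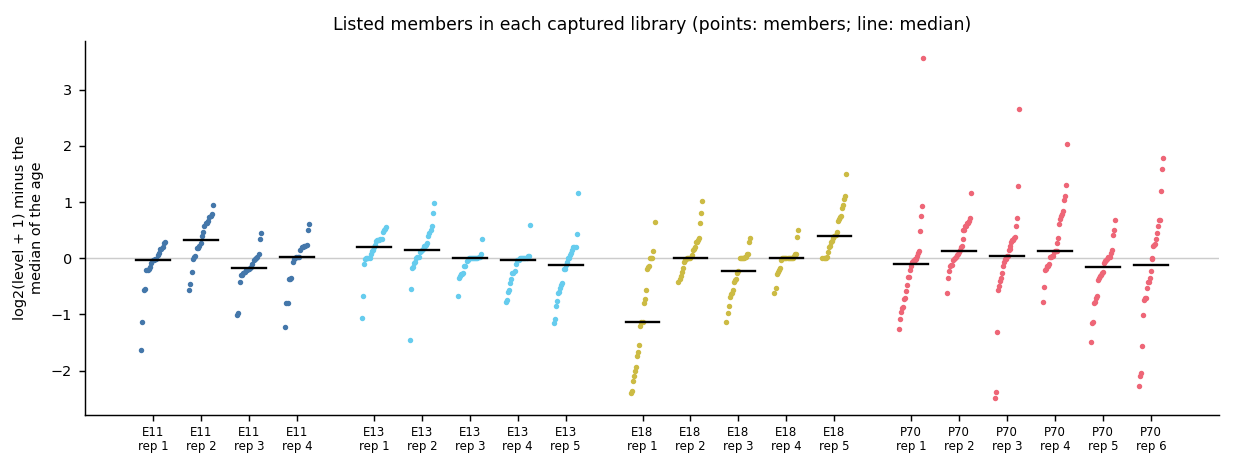
Each listed member's log2(level + 1) minus its median within the age (y axis) in each captured library (x axis), with the library median as a line. The line lies at -1.13 in E18 replicate 1 and between -0.22 and 0.40 in the other 19 libraries.

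Further lists of genes that work with the members gave the following counts in the captured tissue. Of 16 further homeostatic microglia genes, 2 of 9 tested rose and 1 fell between E11 and E13, 5 of 12 rose and 3 fell between E13 and E18, and 3 of 13 rose and 5 fell between E18 and P70. Fcrls, a microglial Fc receptor-like gene, fell between E18 and P70 from 15.2 ± 8.86 to 2.35 ± 3.4 units (change -2.53, adjusted p = 0.00104). The median log2 changes of the list were 0.69, 0.42 and 0.30, against -0.04, -0.04 and -0.14 over all genes. Several of its genes, such as Cst3 and Golm1, are also expressed by neural cells.

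Among 22 genes of activated phagocytes, 8 of 14 rose and 0 fell between E13 and E18, and 1 of 14 rose and 5 fell between E18 and P70, with medians of 1.00 and -0.34. Spp1 (osteopontin), which marks microglia of developing white matter but is made by other cells too, went from 407 ± 227 units at E18 to 1.06 ± 1.48 at P70 (change -7.24, adjusted p = 6.91e-08). Cd9, which ependymal cells and glia also express, rose from 78.5 to 837 units between E13 and E18 (adjusted p = 7.93e-13). Between E11 and E13, 4 of 10 genes of this list rose and 1 fell. Of 14 further border macrophage genes, 5, 5 and 4 were tested at the 3 steps and 0 were called by limma. Folr2, between E11 and E13, was the 1 with an unadjusted p under 0.05 and the 1 called by edgeR on recovered reads, and Lyve1, Ms4a7 and Clec12a were listed at no age. Of 14 genes of ITAM signalling, 5, 6 and 6 were tested and 0 were called by limma. At the 3 steps 0, 1 and 0 had an unadjusted p under 0.05, and as many were called by edgeR on recovered reads, and the central kinase gene Syk was listed at no age.

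Of 10 ligands and partners of microglial receptors, 3 of 7 rose and 0 fell between E11 and E13, 3 rose and 1 fell between E13 and E18, and 1 rose and 2 fell between E18 and P70. Cx3cl1, the ligand of Cx3cr1, rose from 5.94 ± 3.97 to 23.4 ± 12 units between E13 and E18 (change 1.84, adjusted p = 0.000908). Cd200, a neuronal ligand that restrains microglia, rose from 40.2 to 126 units and then fell back to 40.2 (adjusted p = 0.000112 and 0.000254). Il34, a ligand of Csf1r, was not listed at the 3 embryonic ages. Of 14 complement genes beyond C1q, 0 of 4 were called by limma between E11 and E13 (3 at an unadjusted p under 0.05, 2 by edgeR on recovered reads), 2 of 4 rose and 1 fell between E13 and E18, and 2 of 6 rose and 1 fell between E18 and P70. The central component C3 was listed at no age, and the C1 inhibitor gene Serping1 fell from 34.0 to 4.21 units between E13 and E18 (adjusted p = 3.36e-06).

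Few markers of other white blood cells were listed. Of 14 lymphocyte genes, Lck was listed at all 4 ages and Cd79b at E18 alone, and Cd3e and Ms4a1 were listed at none. Of 13 neutrophil and monocyte genes, 0 were listed at E13 and E18, 1 at E11 and 3 at P70, and Ccr2, Ly6g and Mpo were listed at none. Of 6 mast cell genes 1 was listed, at E18 only. Lck, the 1 lymphocyte gene tested, rose between E13 and E18 and fell between E18 and P70. Fibroblast and meningeal genes were highest at E11, where 11 of 11 were listed with sums of 326 to 881 units. The 8, 6 and 5 listed later summed to 59.7 to 172.5 (E13), 68.9 to 118.1 (E18) and 15.9 to 56.7 units (P70), and 7 of 8 tested fell between E11 and E13. Endothelial and mural genes summed to 105 to 156 units (E11), 100.3 to 128 (E13), 36.0 to 60.5 (E18) and 37.8 to 144 (P70), and 8 of 11 fell between E13 and E18. The part of such changes in tissue makeup in the members' changes was not tested.

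The labelled tissue carried floor plate genes at every age. The sum of the floor plate list was 582 to 681 units at E11 and 70.1 to 149.9 at P70, with Shh and Corin no longer listed, and 1 of 7 tested fell between E11 and E13, while 4 fell and 1 rose between E13 and E18 and 4 of 5 fell between E18 and P70. Ependymal genes went from sums of 21.2 to 47.0 units at E11 to 16127 to 26356 at P70, with 2 of 6, 6 of 6 and 7 of 8 tested genes rising at the 3 steps and none falling. Astrocyte genes rose in 3 of 5, 3 of 6 and 5 of 8 and fell in 1, 0 and 2. Of 8 mature neuron genes 5 rose between E11 and E13, 4 rose and 1 fell between E13 and E18, and 5 fell between E18 and P70. Oligodendrocyte genes rose in 1 of 3, 2 of 3 and 3 of 5, with 1 fall at the last step.

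In the cultured spheres most members were barely detected. No member was missing from the table or at 0 in all 10 libraries, but 20 of the 31 never passed 30 counts in any library, and 3 counts correspond to 0.323 to 0.474 CPM. Mrc1, Cx3cr1, Siglech, Ly86, Tmem119, C1qb and P2ry12 were at 0 in 5 or more of the 10 libraries. Ly86 had 5 counts in all, in 1 MB library, and Siglech had 4, in 2 FB libraries. The C1q chains had 25, 14 and 34 counts (C1qa, C1qb, C1qc) over all 10 libraries. The filter of edgeR on low counts left 10 members for the test, and the other 21 were not tested.

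Of these 10, 3 were higher in MB and 0 were lower by edgeR's quasi-likelihood test, where 29.6% of 12886 genes were called, 15.3% higher in MB and 14.3% lower. Tyrobp, Lyz2 and Cyba lay higher in MB with an unadjusted p under 0.05 but were not called. The share of all genes under that looser threshold is not given here, so these 3 cannot be set beside a background. The filter keeps genes with enough counts in as many libraries as 1 group holds, so the 10 that passed do not stand for all 31. Cd163, the scavenger receptor that was listed at no age in the captured tissue, was the clearest. It was at 22.4, 21.1, 18.1, 24.5 and 15.6 CPM in the MB libraries (119 to 155 counts) and at 4.04, 4.45, 2.58, 4.98 and 2.29 CPM in the FB libraries (19 to 42 counts). The groups did not overlap, and the log2 difference was 2.45 (SE 0.26, adjusted p = 4.92e-07).

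Itgb2, the integrin chain, was at 7.51, 6.16, 10.8, 5.69 and 4.45 CPM in MB and at 3.75, 0, 0.215, 0.119 and 1.56 in FB. Every MB library was higher than every FB library, and the log2 difference was 2.63 (SE 0.72, adjusted p = 0.00839). Itgb2 passed the filter through MB, with 34 to 91 counts there against 0 to 25 in FB, so a difference was favoured by the filter itself. With no filter on low counts the difference was 2.65 (adjusted p = 4.03e-05). That fit also changed the spread estimated for genes that the filter keeps. The SE of Lyz2, for example, was 0.23 in the main fit and 0.13 with no filter. A smaller adjusted p with no filter is therefore not firmer evidence. Cd68 was at 8.67, 7.70, 12.2, 14.2 and 7.20 CPM in MB and at 3.29, 3.4, 4.74, 3.68 and 8.43 in FB. FB replicate 5 overlapped MB, and the log2 difference of 1.05 (SE 0.33, adjusted p = 0.0209) was lost without MB replicate 3 or MB replicate 4. The adaptor Tyrobp had groups that did not overlap, 2.46 to 5.11 CPM in MB and 0.830 to 2.26 in FB, but was not called (1.21, adjusted p = 0.0593). DESeq2 called it (1.23, adjusted p = 0.0333). Cyba was not called by edgeR (0.91, adjusted p = 0.0730), but DESeq2 called it (0.92, adjusted p = 0.0449). Without FB replicate 4 edgeR called Cyba too (1.14, adjusted p = 0.0401). Lyz2 was at 92.0 ± 28.2 CPM in MB and 61.0 ± 24.5 in FB (n = 5 each), a difference of 0.56 (adjusted p = 0.0684). By edgeR, Lyz2 was called with no filter on low counts (0.58, adjusted p = 0.000132) and without MB replicate 5 (0.70, adjusted p = 0.0182). Ctss was at 13.3 ± 4.11 and 9.73 ± 2.84 CPM, a difference of 0.43 (adjusted p = 0.240), and Selplg was the 1 of the 10 tested members with a negative log2 difference, -0.29 (adjusted p = 0.710).

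**Figure D5:**
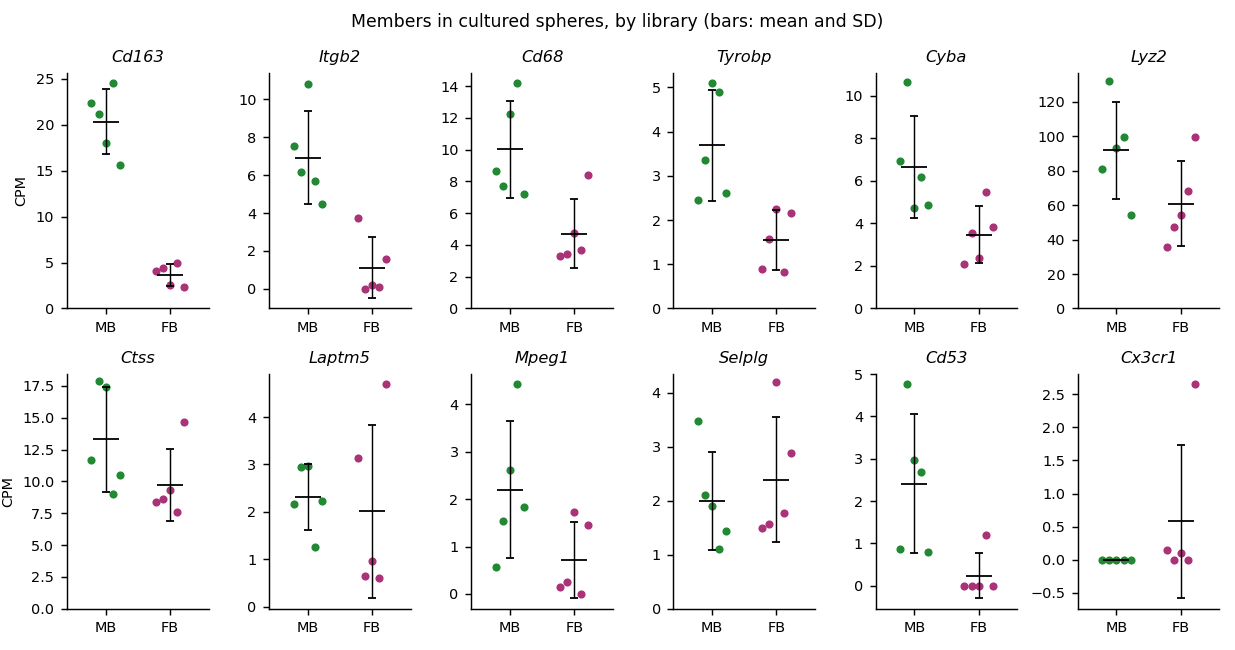
CPM (y axis) of 12 members in each MB and FB sphere library, with the mean and SD; a lower end of the SD bar can fall under 0. Cd163, Itgb2 and Tyrobp do not overlap between the groups, and Cx3cr1 is at 0 in every MB library and high in FB replicate 5 alone.

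The integrin partner of Itgb2, Itgam, had 30 counts in all, and the pan-leukocyte gene Ptprc (CD45) had 57, 28 of them in FB replicate 5. That library also held 22 of the 24 counts of Cx3cr1, 19 of the 34 of F13a1 and 11 of the 17 of Tmem119. For the 10 tested members it lay a median of 0.79 on the log2 scale above the FB median. Without it 4 of 11 members tested were called, Lyz2 being added (0.82, adjusted p = 0.00510), where 3533 of 13067 genes were called. The factor Spi1 had 46 counts in MB and 15 in FB, Irf8 had 60 and 32, and the chemokine Pf4 had 22 and 7. The receptor Csf1r had 20 counts in MB and 35 in FB, Trem2 had 54 and 35, and the adaptor Fcer1g had 46 and 56. None of these passed the filter or was tested. Among the members below the filter, Cd53 had 88 counts in MB and 10 in FB, the 10 all in FB replicate 4, and with no filter on low counts it was called at 3.22 (adjusted p = 0.00382). Cx3cr1, with 0 counts in MB and 24 in FB, was called lower in MB in the same fit (adjusted p = 0.00817). The limit of that fit given for Itgb2 holds for both.

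The further lists in the spheres gave these counts. Of the activated phagocyte genes 11 of 14 were higher in MB and 1 lower, the lower one being Spp1, at 77.3 CPM in MB and 229 in FB (adjusted p = 1.38e-10), and many of these lysosomal genes are expressed by most cells. Of the 14 further border macrophage genes only 5 were tested. Of these 3 were higher in MB, among them the adaptor Dab2 (42.4 against 12.7 CPM, adjusted p = 1.65e-07) and the factor Maf. The border macrophage members Mrc1, Pf4 and F13a1 stayed below the filter, with 3, 29 and 34 counts in all. F13a1 had 8 of its counts in MB and 26 in FB. Lyn was the 1 gene higher in MB among 6 of ITAM signalling. Of the homeostatic microglia genes 2 of 8 were higher and 1 lower, of the receptor partners 3 of 8 were higher, and of the complement genes beyond C1q 1 of 7 was higher. The phagocyte oxidase list had 1 tested gene and no call. Neutrophil, monocyte, mast cell and erythroid genes had no gene above the filter. Lymphocyte genes had 1, Trbc2, at 0.127 CPM in MB and 6.0 in FB (adjusted p = 4.27e-06).

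Neural and stromal markers differed between the spheres too. Oligodendrocyte genes were lower in MB in 6 of 8 and higher in 1, astrocyte genes higher in 3 of 8 and lower in 4, and mature neuron genes lower in 3 of 5. Floor plate genes were higher in MB in 2 of 2, ependymal genes in 2 of 3, fibroblast and meningeal genes in 2 of 6 with 1 lower, and endothelial and mural genes in 2 of 6 with 1 lower. The fibroblast and meningeal sum was 97.4 to 126.6 CPM in MB and 35.6 to 45.5 in FB, the same direction as Cd163. Most of this sum was the single gene Fn1, which averaged 94.15 CPM in MB and 28.71 in FB. Dcn of the same list was lower in MB (0.573 against 2.643 CPM), so the list did not move as a whole. The part of such cells in the level of Cd163 was not tested.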

How the data were processed

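RNA of 20 captured and 10 sphere samples was made into Smart-seq2 cDNA libraries cut with Tn5, per the labels' protocols. The submitters' processing notes list, with no role, DESeq2 1.34.0, STAR 2.3, Salmon 1.6.0 and 2 genome builds, GRCm39 and mm10. No source used here gives the counting or its annotation. The captured values are in a unit that the authors did not name in the deposited table, RPKM-like, with genes of a mean under 1 at an age left out there. The sphere table holds whole counts per gene, as deposited by the authors. Rows of 11 repeated symbols were dropped from the captured table.

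The members and lists were chosen with earlier results of these data known. All members were accounted for, those that the results turn on by library, and of each further list at most the 4 called genes with the smallest p per comparison. Folr2 and Rac2 were named after their values were seen. Captured values were tested with limma 3.58.1 (trend) on log2(value + 1), all 4 ages in 1 fit, over genes listed at both ages. Sphere counts were tested with edgeR 4.0.16 (TMM, filterByExpr, quasi-likelihood test). All p-values were adjusted over all genes tested, with a threshold of 0.05. Both fits were tested on simulated data. Alternatives were another pseudocount, filter, scaling, library weights, a replicate block, single age pairs, edgeR on whole reads recovered within a tolerance of 0.01, DESeq2 1.42.0 for spheres, and leaving out each library. Coordinates are from GENCODE on GRCm38. No protein sequences were used. Some items are not reported here.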

Additional observations from a re-analysis of the deposited data

Results flagged for a closer look

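A library was singled out where its gap to the nearest other library of its group took up most of the group's range (Dixon's test at 95%). This happened for 9 of 112 groups of values, 8.04%, where chance gives about 1 in 20. In the captured tissue, C1qb was at 18.6 units in E11 replicate 2, with the next library at 10.8, and Cyba was at 43.1 units in E11 replicate 3, with the next at 84.2. Siglech was at 0.521 units in E13 replicate 4, with the next at 1.52. Cd68 was at 5.58 units in E18 replicate 1, with the next at 24.6, and Mpeg1 was at 7.12 units in E18 replicate 5, with the next at 1.98. Laptm5 was at 32.0 units in P70 replicate 4, with the next at 16.3, and Spi1 was at 16.0 units in P70 replicate 6, with the next at 6.54. In the spheres, FB replicate 5 stood out for Ctss, at 14.7 CPM with the next at 9.36, and for Cd68, at 8.43 CPM with the next at 4.74.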

How the results depend on the processing

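Over the settings tried no called member changed direction. The calls of C1qa, C1qb, C1qc, Ctss, Aif1, Tyrobp and Trem2 between E11 and E13, of Laptm5 and Pf4 between E13 and E18, of Ctss, P2ry12, Siglech and Cyba between E18 and P70, and of Itgb2 and Cd163 in the spheres were kept under all of them. Leaving out 1 library gave 8 to 11 members called between E11 and E13 (12 with all), 2 to 8 between E13 and E18 (5 with all), 7 to 9 between E18 and P70 (8 with all) and 2 to 4 in the spheres (3 with all). In the same order, all genes called numbered 1773 to 2238, 5045 to 5405, 4395 to 5186 and 3422 to 3632. With all libraries they numbered 2421, 5592, 5042 and 3818. Between E13 and E18 the members' count was 8 without E18 replicate 1, 3 without E13 replicate 5 or E18 replicate 2, and 2 without E18 replicate 5. With weights per library 9 of 22 members were called between E13 and E18, where 6961 of 11797 genes were called. edgeR on recovered reads called 5 members between E18 and P70, with 18 tested, and 2795 of 8966 genes (5042 of 12353 in limma). DESeq2 called 6 members in the spheres and edgeR with no filter on low counts 6, 5 of them higher in MB. Of 26005 genes, DESeq2 called 4300 and edgeR with no filter 4052. Of all genes, 3811 were called between E11 and E13 with only those ages fitted and 4873 with weights per library, against 2421. Scaling by median ratios moved the median of all genes between E18 and P70 by 0.15 on the log2 scale, turned the split of 2082 higher and 2960 lower genes into 2612 and 2174, and turned the uncalled changes of Fcgr3 (0.06) and Cd53 (0.05) positive there, as it did that of Ctss between E13 and E18 (0.06). The cause of these differences was not tested.

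The labels do not say whether samples of the same replicate number are paired. Deviations of same-numbered libraries correlated at -0.15 to 0.25, which cannot exclude a pairing with a small shared effect. With the replicate number as a block, 14, 5 and 7 members were called at the 3 steps and 3 in the spheres. In the same fits 3172, 5855, 4095 and 3650 of all genes were called. Under the block the rises of Trem2 between E13 and E18 (adjusted p = 0.0551) and of Csf1r between E18 and P70 (adjusted p = 0.0823) were lost, and calls were gained for Ly86 between E13 and E18 (adjusted p = 0.0343) and for Fcgr3 and Tmem119 between E11 and E13 (adjusted p = 0.0231 and 0.0129). Reads behind low members limit precision: C1qa rests on 8 to 36 recovered reads per E11 library.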
